A study of Homo sapiens with 6 samples.

Results

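Potassium channel genes were compared between 2 groups of 3 RNA sequencing libraries of LN229 cells, a long-established line from a human glioblastoma, grown in serum-containing medium. The family was taken by symbol: every gene in the deposited tables named KCN, 1 or more letters and a number, plus LRRC8A, which gave 96 of 28265 genes. Of these, 40 encode voltage-gated pore subunits, 16 inward rectifiers, 15 two-pore channels and 8 calcium-activated channels and their close Slo relatives. Another 16 encode accessory subunits that form no pore. LRRC8A is not a potassium channel: it encodes the obligatory subunit of the volume-regulated anion channel, which works beside potassium channels when cells shrink.

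The control group is labelled wild type, and its titles carry the unexplained letters NC, so untreated cells and cells with a non-targeting hairpin cannot be told apart. The other group is labelled TRIM25 knockdown, using a short hairpin RNA as the series design states. TRIM25 encodes a ubiquitin ligase. Neither the hairpin sequence nor the number of clones is given in the sources used here, and the labels are silent on whether cultures were separate. Each p-value therefore reflects no more than the spread among these libraries, which may be technical. In the libraries labelled knockdown TRIM25 mRNA was higher, not lower, with 964, 905 and 1443 counts against 561, 493 and 563 in the controls (1.22 ± 0.07 on the log2 scale, SE; edgeR adjusted p = 3.23e-09). The group names below are therefore only the labels, and no direction can be read as an effect of losing TRIM25 mRNA.

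Potassium channels let potassium leave the cell along its gradient and so set the resting membrane potential. Voltage-gated channels open on depolarisation, calcium-activated channels when cytosolic calcium rises, inward rectifiers near the resting potential, and two-pore channels carry background current. In glioma cells the large-conductance channel KCNMA1 and the intermediate-conductance channel KCNN4 are known for letting cells lose potassium and water together with chloride, which is linked to shape change during migration.

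Total counts ranged from 11349865 to 16404725 per library, and 14315 genes passed a filter on low counts. The glial and mesenchymal genes VIM, NES, CD44, S100B and SOX2 were abundant, with mean levels of at least 109.9 CPM (counts scaled to TMM-adjusted library size) in either group, while the astrocyte genes GFAP and AQP4 had 35 and 5 counts in all 6 libraries together. SOX2, OLIG2 and S100B fell by 0.66, 0.67 and 0.33 on the log2 scale in the libraries labelled knockdown and NES rose by 0.27 (edgeR adjusted p under 0.05 for each). Neuronal markers summed to between 235.6 and 246.2 CPM in the controls and between 207.8 and 230.6 CPM in the libraries labelled knockdown; of the 5, TUBB3, SYT1 and SNAP25 were measurable, and RBFOX3 and STMN2 had 4 and 3 counts in all. Immune markers summed to between 44.5 and 46.9 CPM and between 58.0 and 72.2 CPM, almost all of it CD68, which rose by 0.49 on the log2 scale, with AIF1 at 0 and PTPRC at 19 counts. Endothelial markers stayed at or below 2.47 CPM in every library. Fibroblast markers summed to between 66.5 and 71.2 CPM and between 52.0 and 57.7 CPM, most of it LUM and DCN, and DCN fell by 1.17 on the log2 scale. The part of these shifts in the channel results was not tested, and in bulk RNA fewer cells of a type and less RNA per cell cannot be told apart.

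The sequence just before the annotated start is shown for 4 genes on which the results turn: KCNN3 and KCNC4, which rose most, KCNA2, the pore gene that fell, and KCNN4, the most abundant channel gene, which did not pass the test. Each is the 250 bases upstream of the RefSeq start on GRCh38.p14, written 5′ to 3′ along the gene, at chr1:154870282-154870531 (minus strand) for KCNN3, chr1:110210064-110210313 (plus strand) for KCNC4, chr1:110631441-110631690 (minus strand) for KCNA2 and chr19:43780974-43781223 (minus strand) for KCNN4. Capitals mark matches to GGGCGG, the core of the GC box of SP1-family factors, CACGTG, the E-box of MYC and MAX, TGACTCA, the AP-1 element, or TATAAA, each searched on both strands.
KCNN3: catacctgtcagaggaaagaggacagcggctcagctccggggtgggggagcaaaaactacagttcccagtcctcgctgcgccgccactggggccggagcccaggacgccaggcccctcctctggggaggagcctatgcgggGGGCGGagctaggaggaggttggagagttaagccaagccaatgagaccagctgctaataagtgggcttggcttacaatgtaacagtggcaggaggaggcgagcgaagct
KCNC4: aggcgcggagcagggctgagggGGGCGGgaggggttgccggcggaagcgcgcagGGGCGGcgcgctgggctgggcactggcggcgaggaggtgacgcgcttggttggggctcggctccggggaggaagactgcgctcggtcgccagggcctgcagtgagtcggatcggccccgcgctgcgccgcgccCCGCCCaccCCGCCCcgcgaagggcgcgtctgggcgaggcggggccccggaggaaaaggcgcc
KCNA2: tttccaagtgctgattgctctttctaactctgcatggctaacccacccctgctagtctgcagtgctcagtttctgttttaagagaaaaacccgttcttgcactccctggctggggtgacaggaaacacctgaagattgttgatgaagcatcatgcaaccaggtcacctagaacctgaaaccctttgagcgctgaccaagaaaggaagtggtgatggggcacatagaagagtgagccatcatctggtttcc
KCNN4: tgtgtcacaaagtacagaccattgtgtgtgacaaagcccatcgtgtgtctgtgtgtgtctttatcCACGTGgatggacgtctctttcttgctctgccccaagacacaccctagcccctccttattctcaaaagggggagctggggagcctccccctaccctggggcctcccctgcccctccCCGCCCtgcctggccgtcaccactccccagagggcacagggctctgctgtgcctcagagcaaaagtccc

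The 4 sequences differ in composition. The KCNA2 window had a GC content of 48.8% and 2 CpG dinucleotides, and none of the 4 motifs. The KCNN3 window had 11 CpG and 1 GC box, the KCNC4 window 36 CpG and 4 GC boxes, and the KCNN4 window 5 CpG, 1 GC box and 1 E-box. Of the 30 channel genes with enough counts to test, 23 had an entry in the RefSeq table. A GC box was found in 19 of the 23 windows, against 42.6% of 35116 windows of the same length over all genes, and an E-box in 1, against 6.34%. No AP-1 element was found in the 23 (4.20% of all windows), and TATAAA in those of KCNJ14 and KCNT2 (10.7% of all windows). The median window of the 23 held 18 CpG, against 11 over all. The 35116 windows were not limited to genes with enough counts to test, nor to 1 per gene, unlike the 23. The differences therefore cannot be read as a trait of channel genes. These matches describe the letters and are not binding sites, and the start that LN229 cells use was not measured.

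Most of the family was silent or nearly so in these cells. Of the 96 genes, 15 had no count in any of the 6 libraries, among them KCNA1, KCNA3, KCNA5, KCNQ1, KCNN2, KCND3 and KCNJ6. For a gene at 0, 3 counts over the 6 libraries would be 0.0352 CPM, which covers counting error only. Another 51 had between 1 and 58 counts in the 6 libraries together and did not pass the filter. Over all 28265 genes, 6511 had no count, and 13950, those included, did not pass the filter. The 30 that passed were 4 of 8 calcium-activated genes, 10 of 40 voltage-gated genes, 4 of 16 inward rectifiers, 3 of 15 two-pore genes, 8 of 16 accessory genes and LRRC8A. KCNJ2 and KCNH3 reached the filter level in all libraries of the control group only, and KCNK15 in neither group as a whole.

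**Figure D1:**
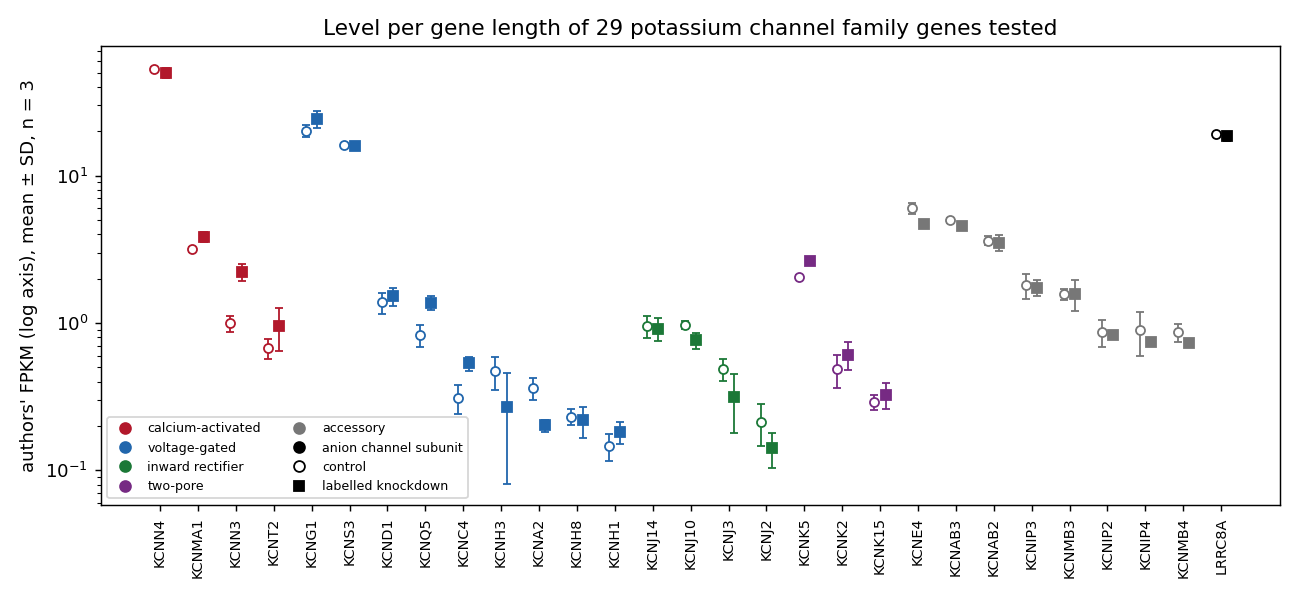
Levels per gene length of 29 of the 30 genes tested, as the authors' FPKM on a log axis, ordered by class and by level. Open circles are the controls and filled squares the libraries labelled knockdown (mean ± SD, n = 3 each); KCNN4, KCNG1 and KCNS3 stand above every other pore gene in both groups.

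Compared per gene length, on the authors' FPKM scale, 3 genes made up most of the pore subunit mRNA. KCNN4, which encodes the intermediate-conductance calcium-activated channel, stood at 53.1 ± 1.60 FPKM in the controls and 49.7 ± 3.85 FPKM in libraries labelled knockdown (mean ± SD, n = 3 each). KCNG1 stood at 20.2 ± 1.82 and 24.4 ± 3.20 FPKM and KCNS3 at 16.0 ± 0.469 and 16.0 ± 0.768 FPKM. Among the pore genes below them were KCNMA1 (3.16 ± 0.123 and 3.84 ± 0.298 FPKM) and KCNK5 (2.05 ± 0.0772 and 2.63 ± 0.0251 FPKM). KCNN4, KCNG1 and KCNS3 together held between 79.2% and 83.4% of the summed FPKM of the 79 pore genes in each library, and KCNN4 alone between 44.1% and 49.3%. LRRC8A stood at 19.3 ± 0.281 and 18.4 ± 1.38 FPKM. The ranges of KCNN4, KCNG1 and KCNS3 over the 6 libraries did not overlap: the lowest KCNG1 library had 18.1 FPKM and the highest KCNS3 library 16.7 FPKM.

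KCNG1 and KCNS3 encode electrically silent subunits, which are known to conduct only together with another voltage-gated subunit. The other silent subunits were low in the 6 libraries together: KCNF1 had 37 counts, KCNG3 58, KCNG2 3, KCNG4 3, KCNS1 3, KCNV1 2 and KCNV2 2, and KCNS2 had 0. The accessory gene KCNE4, which is known to damp KCNQ1 and Kv1 currents, stood at 6.03 ± 0.538 FPKM in the controls, while KCNQ1 was at 0 counts. mRNA counts do not show whether protein or current was present.

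Between the groups, 6 of the 30 tested genes rose and 2 fell in the libraries labelled knockdown, and 22 did not pass (quasi-likelihood test of edgeR at an adjusted p under 0.05 over all 14315 genes). This was 26.7% of the 30, against 23.3% of all genes tested (12.2% higher and 11.0% lower), so the share was near that of genes at large. KCNN3, KCNC4, KCNQ5, KCNK5, KCNMA1 and KCNG1 rose, and KCNA2 and KCNE4 fell. The median log2 fold change of the 30 was -0.04, against -0.00376 over all genes. CPM values of the groups were fully apart for 10 of the 30, namely the 8 called genes, KCNJ10 and KCNAB3, and for 37.3% of all genes tested. Leaving out control replicate 2, control replicate 3 or labelled knockdown replicate 2 cut the share over all genes to 12.5%, 13.1% and 12.8%, with 6, 6 and 7 channel genes called. Leaving out labelled knockdown replicate 1 raised that share to 33.8%, with 6 channel genes higher and 5 lower. Leaving out labelled knockdown replicate 3 gave 17.0%, with 5 higher and 5 lower. The lower genes in the fits without labelled knockdown replicate 1 or 3 include KCNF1 and KCNK9. KCNK9 is also among those called without control replicate 2, and KCNF1 among those called without labelled knockdown replicate 2. KCNF1 and KCNK9 reach a test mainly through the controls, where they are high, so their calls add no support. The same holds for KCNH3, which was called lower without labelled knockdown replicate 1.

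**Figure D2:**
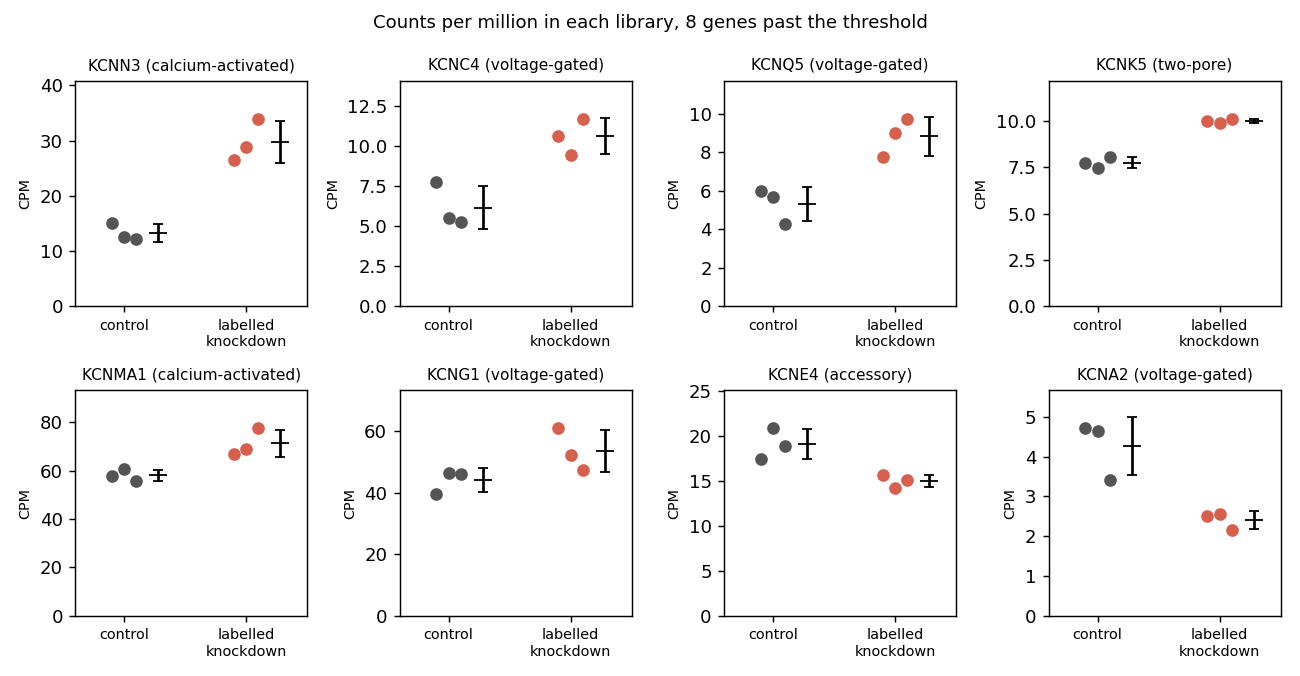
CPM in each library for the 8 genes past the threshold, with points for libraries in the order of their replicate numbers and bars for mean ± SD (n = 3), each axis starting at 0. In all 8 the groups do not overlap, most narrowly in KCNG1, where the lowest library labelled knockdown (47.2 CPM) lies just above the highest control (46.5 CPM).

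Calcium-activated genes moved unequally. KCNN3 encodes the small-conductance channel SK3, which is opened by a rise in cytosolic calcium. It had 15.2, 12.5 and 12.1 CPM in control replicates 1 to 3 and 26.4, 28.8 and 34.0 CPM in the libraries labelled knockdown. Every library labelled knockdown lay above every control, and the gene rose 2.25-fold (1.17 ± 0.11 on the log2 scale, SE; edgeR adjusted p = 1.14e-06). KCNMA1, the large-conductance BK channel gene, had 57.7, 60.5 and 55.9 CPM and 67.0, 69.0 and 77.6 CPM and rose 1.23-fold (0.30 ± 0.07 on the log2 scale; edgeR adjusted p = 0.00634). Again the groups were apart, and the highest value was in labelled knockdown replicate 3. KCNMA1 shares 288 bp of exon with KCNMA1-AS1 on the opposite strand, which is listed at 0 counts in every library.

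KCNN4 did not pass the test. It had 100.3, 106.5 and 104.1 CPM in the controls and 106.3, 94.1 and 92.6 CPM in the libraries labelled knockdown, and the groups overlapped. The 95% interval of its log2 fold change (-0.09) ran from -0.23 to 0.05 and does not reach that of KCNN3, which ran from 0.94 to 1.40. KCNN4 remained the more abundant of this pair per length, at 45.3, 58.0 and 58.6 times the FPKM of KCNN3 in the controls and 27.5, 22.3 and 18.6 times in the libraries labelled knockdown. This pair was set side by side with the rise of KCNN3 known, so the ratio restates it. KCNT2, a sodium-activated relative, had 3.59, 4.79 and 3.99 CPM and 4.75, 4.77 and 8.04 CPM. The high value came from 1 library, labelled knockdown replicate 3, and the groups overlapped; the log2 fold change was 0.56 ± 0.20 (edgeR adjusted p = 0.0518) and 0.22 without that library (adjusted p = 0.466). KCNT2 passed when labelled knockdown replicate 1 or 2 was left out (adjusted p = 0.00479 and 0.0429). With edgeR it also passed with no low-count filter (adjusted p = 0.00402) and with a length trend removed (0.0449). It did not pass with DESeq2 (0.137) or limma-voom (0.0685). KCNN1, KCNT1 and KCNU1 had 30, 10 and 2 counts in all, and KCNN2 had 0.

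**Figure D3:**
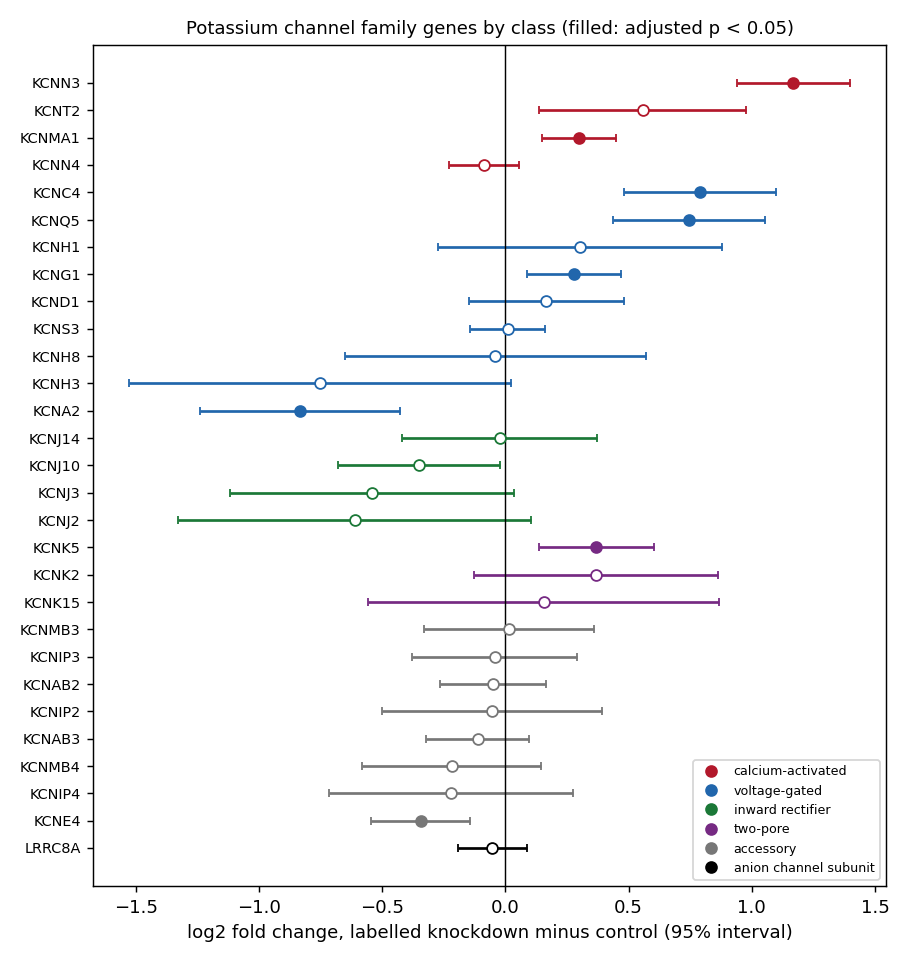
Log2 fold changes of 29 of the 30 tested genes by class, labelled knockdown minus control, with 95% intervals; filled points passed an edgeR adjusted p of 0.05. Voltage-gated genes lie on both sides of 0, from KCNC4 at 0.79 to KCNA2 at -0.83.

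Among 10 tested voltage-gated genes 3 rose, 1 fell and 6 did not pass, with a median of 0.09 (40.0% called, against 23.3% of all genes tested). KCNC4, which encodes the fast Kv3.4 channel, had 7.74, 5.51 and 5.25 CPM in the controls and 10.7, 9.46 and 11.7 CPM in the libraries labelled knockdown. It rose 1.73-fold without overlap (log2 fold change 0.79 ± 0.15, SE; edgeR adjusted p = 0.000971), although control replicate 1 stood above the other 2 controls. KCNQ5, which encodes a subunit of the slow M-type current, had 5.98, 5.66 and 4.30 CPM and 7.75, 9.01 and 9.75 CPM. It rose 1.68-fold (0.75 ± 0.15; edgeR adjusted p = 0.00146), again without overlap. In the annotation KCNQ5 shares 282 bp of exon with a gene on the opposite strand.

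KCNA2, which encodes the Kv1.2 channel, had 4.72, 4.64 and 3.42 CPM in the controls and 2.50, 2.56 and 2.15 CPM in the libraries labelled knockdown. It fell 1.78-fold (-0.83 ± 0.19 on the log2 scale, SE; edgeR adjusted p = 0.00498). The lowest control lay above the highest library labelled knockdown. KCNA2 and KCNC4 lie near each other on chromosome 1, where KCNA10 and KCNA3 flank KCNA2 and 5 protein-coding genes separate KCNC4 from KCNA10 in the RefSeq order. Their changes had opposite signs. The other Kv1 genes were low: KCNA1, KCNA3, KCNA5 and KCNA10 had 0 counts, and KCNA4, KCNA6 and KCNA7 had 2, 12 and 1. In the annotation KCNA6 shares all 4237 bp of its exons with GALNT8 on the same strand, so its count is uncertain. Levels of KCNA2 were low too, between 29 and 75 counts per library.

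The silent subunits KCNG1 and KCNS3 were abundant in both groups. KCNG1 had 39.5, 46.5 and 46.2 CPM and 61.1, 52.4 and 47.2 CPM, a rise of 0.28 ± 0.09 on the log2 scale (edgeR adjusted p = 0.0359). Leaving out control replicates 1, 2 or 3 ended the call (adjusted p = 0.142, 0.0673 and 0.0532), as did leaving out labelled knockdown replicate 1 (0.0765, log2 fold change 0.18) or 2 (0.0879). KCNG1 shares 434 bp of exon with a gene on the opposite strand. KCNS3 had 40.3, 39.6 and 41.8 CPM and 42.6, 38.7 and 41.0 CPM, with a 95% interval of the log2 fold change from -0.14 to 0.16. The value was 0.01 and lay within the spread between libraries.

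The remaining voltage-gated genes did not pass. KCND1, a Kv4 gene, had a log2 fold change of 0.17 ± 0.15, the EAG gene KCNH1 one of 0.30 ± 0.27, and KCNH8, an ELK channel gene, one of -0.04 ± 0.29. KCNH1 shares 1582 bp of exon with another gene on the same strand and 3618 bp with one on the opposite strand. KCNH3, another ELK gene, had 33, 31 and 21 counts and 21, 3 and 20 counts, so the low value came from labelled knockdown replicate 2; its log2 fold change was -0.75 ± 0.37 (edgeR adjusted p = 0.151). KCNH3 passed with edgeR when labelled knockdown replicate 1 was left out (adjusted p = 0.0206). Only in the control group, where it is higher, did all libraries reach the filter level, so this pass adds no support.

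Of 4 tested inward rectifiers 0 passed (0.00% called, against 23.3% of all genes tested). With 4 genes tested, this cannot be read as a trait of the class. With edgeR 1 of the 4 had an unadjusted p under 0.05, and 0 passed with DESeq2 or limma-voom. KCNJ10, the glial Kir4.1 channel gene, had 4.72, 5.29 and 5.12 CPM in the controls and 4.50, 3.98 and 3.50 CPM in the libraries labelled knockdown. The groups did not overlap, and the log2 fold change was -0.35 ± 0.16 (edgeR adjusted p = 0.116). KCNJ3, which encodes a G protein-gated subunit, had 2.77, 2.39 and 1.96 CPM and 1.08, 1.24 and 2.33 CPM. Labelled knockdown replicate 3 lay among the controls, so KCNJ3 missed the threshold (-0.54 ± 0.27; adjusted p = 0.162) and passed it without that library (-1.03; adjusted p = 0.0215). KCNJ14 had 3.02, 4.21 and 3.73 CPM and 2.83, 3.80 and 3.99 CPM, a log2 fold change of -0.02 ± 0.19, and shares 350 bp of exon with GRWD1 on the same strand. KCNJ2, the classical Kir2.1 gene, had between 7 and 24 counts per library (-0.61 ± 0.34) and passed the filter only through the controls, where it is higher. Over all 16 inward rectifiers the summed level was 2.78, 2.96 and 2.96 FPKM in the controls. In the libraries labelled knockdown it was 2.10, 2.29 and 2.38 FPKM. These sums did not overlap, but the difference was not tested, and 37.3% of all genes tested had groups fully apart in CPM. The sums include KCNJ2 and genes below the filter.

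Of 3 tested two-pore genes, out of 15, 1 rose and 2 did not pass (33.3% called, against 23.3% of all genes tested). KCNK5, the acid- and volume-sensitive TASK-2 gene, had 7.74, 7.47 and 8.04 CPM in the controls and 10.00, 9.90 and 10.1 CPM in the libraries labelled knockdown. The values were close within each group and did not overlap, for a rise of 0.37 ± 0.11 on the log2 scale (edgeR adjusted p = 0.0234). The call did not hold when control replicates 1, 2 or 3 were left out (adjusted p = 0.0515, 0.0928 and 0.0542), nor labelled knockdown replicates 2 or 3 (0.0658 and 0.0633), nor with DESeq2 (0.111). KCNK2, the mechanosensitive TREK-1 gene, had 27, 37 and 29 counts and 24, 34 and 47 counts, with overlapping levels (0.37 ± 0.23; adjusted p = 0.275). KCNK15 had 12, 11 and 10 counts and 12, 9 and 11 counts, and a log2 fold change of 0.16 ± 0.34. Summed over the 15 two-pore genes the level was 3.41, 3.63 and 3.56 FPKM in the controls and 4.36, 4.07 and 4.04 FPKM in the libraries labelled knockdown, most of it KCNK5. Of the low two-pore genes, KCNK9, KCNK1, KCNK3 and KCNK6 had more counts in the controls (40, 20, 18 and 9 over the 3 libraries) than in the libraries labelled knockdown (11, 9, 7 and 5), and KCNK7 had fewer (9 and 17). These are raw counts, not scaled to library totals, of some of the 12 two-pore genes below the filter. With no low-count filter, KCNK1, KCNK3, KCNK6 and KCNK7 did not pass (edgeR adjusted p = 0.372, 0.299, 0.696 and 0.276).

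Set beside each other as shares of pore mRNA per length, the classes had the same order in both groups. Calcium-activated genes took 53.8% ± 0.580 of the summed FPKM in the controls and 51.3% ± 0.357 in libraries labelled knockdown (mean ± SD, n = 3 each). Voltage-gated genes took 40.3% ± 0.569 and 42.9% ± 0.652, inward rectifiers 2.68% ± 0.0236 and 2.05% ± 0.247, and two-pore genes 3.27% ± 0.0104 and 3.75% ± 0.0789. KCNN4 made up most of its class, and the calcium-activated sum stood at 58.2 ± 1.57 and 56.8 ± 3.28 FPKM, although KCNN3 rose. Differences between the classes were not tested.

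Of 8 tested accessory genes 1 fell and 7 did not pass, with a median of -0.08 (12.5% called, against 23.3% of all genes tested). KCNE4 had 17.5, 20.9 and 18.9 CPM in the controls and 15.7, 14.2 and 15.1 CPM in the libraries labelled knockdown. It fell by 0.34 on the log2 scale without overlap (SE 0.10; edgeR adjusted p = 0.0155). Leaving out control replicate 2, the highest of the controls, ended the call (adjusted p = 0.103), as did leaving out labelled knockdown replicate 2 (0.0796), and the gene missed the threshold with DESeq2 (0.0556). The Kv beta subunit genes KCNAB3 and KCNAB2 did not pass: KCNAB3 had 12.0, 11.9 and 12.7 CPM and 11.2, 11.3 and 11.3 CPM, without overlap, and KCNAB2 had 16.0, 16.5 and 18.2 CPM and 18.7, 15.3 and 15.2 CPM. Their log2 fold changes were -0.11 ± 0.10 and -0.05 ± 0.10.

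No accessory gene passed as higher (0 of 8, against 12.2% of all genes tested), those of channels whose pore gene rose included. With 8 genes tested, this cannot be read as a trait of accessory genes. The BK beta subunit genes KCNMB4 and KCNMB3 had log2 fold changes of -0.22 (95% interval -0.58 to 0.14) and 0.01 (-0.33 to 0.36), beside 0.30 for the pore gene KCNMA1; the difference was not tested. KCNMB3 shares 3403 bp of exon with a gene on the opposite strand, so its reads are uncertain. The Kv4 partner genes KCNIP2, KCNIP3 and KCNIP4, which encode calcium-binding proteins, had log2 fold changes of -0.06 ± 0.21, -0.04 ± 0.16 and -0.22 ± 0.23. LRRC8A had 90.4, 91.2 and 92.8 CPM and 95.8, 84.6 and 84.4 CPM, a log2 fold change of -0.05 with a 95% interval from -0.19 to 0.09, and the groups overlapped.

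Of the genes too low for the main test, KCNF1 and KCNK9 were looked at after their values were seen. KCNF1, a silent Kv subunit gene, had 8, 13 and 12 counts in the controls and 3, 0 and 1 in the libraries labelled knockdown. KCNK9, the TASK-3 gene, had 13, 9 and 18 counts and 4, 1 and 6. With no filter on low counts, edgeR called both lower (adjusted p = 0.000443 and 0.00826; 16.8% of 21754 genes were called in that fit), and DESeq2 called KCNF1 (adjusted p = 0.0260; 16.2% of genes called) and not KCNK9 (0.0882). Both genes were picked on these same values and have few counts, so these calls support nothing further. Counting error is large at such counts.

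Fold changes of long genes need care in these data. Over all tested genes the log2 fold change rose with gene length (Spearman's rho 0.30 across 14315 genes, which are not independent), and libraries within a group also differed along length, with rho at -0.38 in labelled knockdown replicate 1 and 0.38 in replicate 3, relative to the group mean. The tested channel genes were long, with a median of 4698.5 bp against 3592 bp over all tested genes. KCNC4 (19909 bp), KCNMA1 (18439 bp), KCNN3 (13380 bp) and KCNA2 (11875 bp) were the longest. With a length trend removed from each library, KCNN3 stayed at 1.05, KCNC4 at 0.66 and KCNA2 at -0.95 on the log2 scale. All 8 calls held, and KCNT2 was called higher as well (edgeR adjusted p = 0.0449). KCNMA1 moved from 0.30 to 0.17 (edgeR adjusted p = 0.0470), and to 0.17 with length and GC content both removed (adjusted p = 0.0145).

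**Figure D4:**
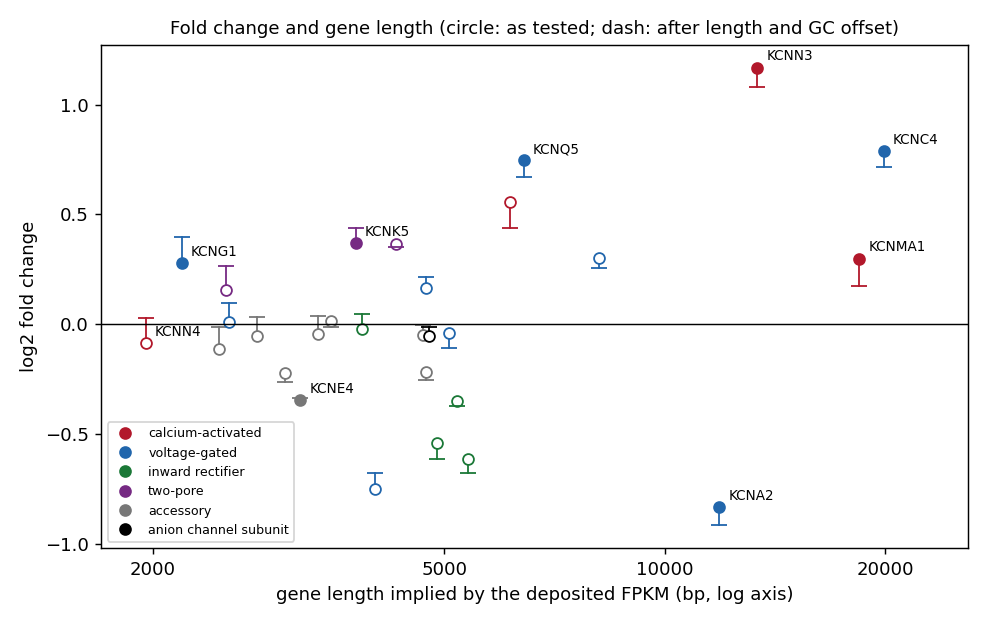
Log2 fold change of 29 of the 30 tested genes against gene length (log axis), with circles for the values as tested, filled where the gene passed, and dashes for the values after the length and GC trends of each library were removed. KCNMA1 moves down from 0.30 to 0.17, and KCNG1 moves up from 0.28 to 0.40.

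Genes that work with potassium channels were counted from a list of 58 present in the tables, of which 41 were tested: 9 rose, 6 fell and 26 did not pass (36.6%, against 23.3% of all genes; median log2 fold change 0.12). Leaving out labelled knockdown replicate 1 gave 17 higher, in a fit that called 33.8% of all genes, and leaving out labelled knockdown replicate 2 gave 3 lower, in a fit that called 12.8%. None of the LRRC8A partners LRRC8B, LRRC8C, LRRC8D and LRRC8E passed (0.00% of 4, against 23.3% of all genes tested). Their log2 fold changes were 0.18, -0.23, -0.08 and -0.05, and 1 of the 4 had an unadjusted p under 0.05 with edgeR. The KATP partners ABCC8 and ABCC9 had 27 and 14 counts in all, and the Kv4 partners DPP6 and DPP10 0 and 2.

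Of 10 tested potassium pump and cotransporter genes 3 rose (30.0% called, against 23.3% of all genes tested). SLC12A7, which encodes the potassium-chloride cotransporter KCC4, rose from 40.3 ± 3.28 to 70.0 ± 5.69 CPM (0.79 ± 0.08 on the log2 scale, SE; edgeR adjusted p = 2.38e-06). ATP1B3, a beta subunit gene of the sodium pump, rose by 0.26. SLC12A2, the sodium-potassium-chloride importer NKCC1, did not pass (0.20 ± 0.08; adjusted p = 0.0718).

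Kinases and ligases of channel trafficking moved in both directions, 2 of 7 higher and 1 lower (42.9%, against 23.3% of all genes tested). SGK1, a kinase known to raise the surface level of several channels, fell from 74.1 ± 0.418 to 47.0 ± 4.10 CPM (log2 fold change -0.65 ± 0.07). NEDD4L, the ubiquitin ligase that SGK1 inhibits, rose from 84.8 ± 5.25 to 112.6 ± 1.32 CPM (0.41 ± 0.06), and WNK1, the kinase that senses chloride and volume, rose by 0.37. These 3 calls held in all 14 alternatives tried.

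Of 14 genes of calcium supply and sensing, which feed the calcium-activated channels, 4 rose and 4 fell. This was 57.1%, against 23.3% of all genes tested, and the difference was not tested. ITPR3, a calcium release channel of the endoplasmic reticulum, rose from 153.4 ± 14.0 to 210.3 ± 6.09 CPM, and PIEZO1, a stretch-activated cation channel, from 123.5 ± 7.34 to 167.1 ± 8.23 CPM (log2 fold changes 0.45 and 0.44). TRPM7, a magnesium and calcium channel with a kinase domain, rose by 0.31, or 0.13 with length and GC trends removed. It missed the threshold when control replicates 2 or 3 (adjusted p = 0.0698 and 0.0625) or labelled knockdown replicate 3 (0.0588) were left out. ORAI3, a store-operated calcium channel gene, fell by 0.31, or by 0.19 with length and GC trends removed. Among channels of volume change the water channel gene AQP1 fell from 3.15 ± 0.599 to 1.65 ± 0.470 CPM (-0.91 ± 0.24; edgeR adjusted p = 0.0104). AQP1 missed the threshold when control replicate 2 or labelled knockdown replicate 2 was left out (0.0676 and 0.0631). REST, a repressor of neuronal channel genes, had a log2 fold change of 0.15 ± 0.08 and did not pass.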

How the data were processed

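Total RNA of LN229 cells was sequenced in 6 libraries, and groups were taken from the genotype label. Per the labels' protocols, the library kit keeps strand and starts from total RNA. FastQC, MultiQC, Trim Galore, HISAT2 and the build hg19 are named in the submitters' processing notes; how reads were counted, on which strand and against which gene models is not given in the sources used here. The authors' counts are whole reads per gene symbol, not normalised. The deposited FPKM are counts scaled by a set length for each gene and by library total, and served to compare genes and to recover lengths (whole within 0.001 bp). The deposited TPM, which sum to 1000000, were not used. No copies were found among libraries (chi-square per degree of freedom at least 1.95).

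Counts were tested with edgeR 4.0.16 in R 4.3.3 (filterByExpr, TMM, glmQLFit and glmQLFTest with group as the only term), fitted on 14315 genes and adjusted by Benjamini-Hochberg over all of them; SE is the log2 fold change divided by the square root of F. Alternatives were DESeq2 1.42.0, limma-voom (limma 3.58.1), other filters and scaling, offsets for length and GC content (5-df splines; GENCODE v29), a replicate block and leaving out each library. Tested channel genes are named, and up to 4 called genes per partner list; other partner genes named were picked after their values were seen. The values of a few genes taken by these rules are not reported here; they stay in the counts. Shared exon lengths come from GENCODE v29, a build other than that of the files; strand of counting is unknown, so overlapping genes are uncertain. The members and lists were chosen with earlier results of these data known.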

Additional observations from a re-analysis of the deposited data

How the results depend on the processing

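The rises of KCNN3, KCNC4, KCNQ5 and KCNMA1 and the fall of KCNA2 kept their direction and call in all 14 alternatives; KCNK5, KCNG1 and KCNE4 kept their direction and lost the call in 7, 6 and 4 of them. The number of channel genes called lower was 2. It was 5 with no low-count filter (KCNF1, KCNK9 and KCNH3 were added). It ranged from 2 to 5 when 1 library was left out, in fits where 31 to 34 channel genes passed the filter. The lower genes added there include KCNF1, KCNK9 and KCNH3, which reach a test mainly through the controls. The number called higher ranged from 4 to 6 when 1 library was left out. It was 7, with KCNT2 added, with no low-count filter and with the length trend offset. Of the partner genes, 9 were called higher, with a range from 6 to 17 without 1 library (17 without labelled knockdown replicate 1), and 6 lower, with a range from 3 to 7 and a value of 11 after the length and GC offset; the cause was not tested. Over all genes 3330 were called, against 1826, 1877 and 1868 without control replicate 2, control replicate 3 and labelled knockdown replicate 2, and 4941 without labelled knockdown replicate 1.

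With the replicate number as a block, 4 channel genes were called higher and 1 lower (KCNA2), 6 and 5 partner genes, and 1891 genes in all. The adjusted p of KCNE4, KCNK5 and KCNG1 was then 0.0539, 0.0676 and 0.103. Pearson's r across genes between deviations from the group means was -0.19, 0.0082 and -0.22 for same-numbered libraries. For libraries of unlike number it ranged from -0.029 to 0.22. Libraries within a group also differed along gene length, so these values cannot decide whether the numbers pair the libraries.

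Signs turned for 9 channel genes, none of which passed in the fits concerned, at sizes up to 0.16. After the length and GC offset the log2 fold changes were 0.031 for KCNIP2, 0.038 for KCNIP3, -0.015 for KCNMB3, 0.027 for KCNN4 and 0.044 for KCNJ14; with limma-voom KCNMB3 was at -0.0057, and with library totals alone KCNS3 was at -0.0015. Without 1 library the range was -0.15 to 0.012 for KCNAB2, -0.19 to 0.086 for KCNIP2, -0.18 to 0.092 for KCNIP3, -0.36 to 0.060 for KCNIP4, -0.16 to 0.14 for KCNMB3, -0.15 to 0.11 for KCNJ14, -0.24 to 0.12 for KCNH8 and -0.015 to 0.044 for KCNS3. Depth limits the 51 channel genes below the filter, whose changes were mostly not detectable.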
